A study of Arabidopsis thaliana with 9 samples.

Results

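The clade A protein phosphatases of type 2C are 9 genes of *Arabidopsis thaliana* that hold abscisic acid (ABA) signalling in check: *ABI1*, *ABI2*, *HAB1*, *HAB2*, *HAI1*, *HAI2*, *HAI3*, *AHG1* and *PP2CA*, which is also called *AHG3*. They were taken by gene identifier from a transcriptome table with values for 25717 genes, and all 9 had values. The clade was chosen by its lower fitted values in the mutants than in Col-0, seen in this same table, so the ratios to Col-0 are given as a description and not as a test. A filter on low values was passed by 7 of the 9. *HAI3* (AT2G29380) and *AHG1* (AT5G51760) missed it in every genotype, and *HAI2* (AT1G07430) passed it through Col-0 alone.

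When ABA is absent, these phosphatases bind and dephosphorylate SnRK2 kinases and keep them inactive. When ABA binds its PYR/PYL receptors, the receptor and hormone together dock on the phosphatase and block it, and the freed SnRK2 kinases phosphorylate bZIP transcription factors of the ABF and ABI5 family. ABA also induces the transcripts of most clade A phosphatases, and HAI stands for highly ABA-induced, so the clade forms a negative feedback loop. AHG1 is known for its part in seeds, where it binds the dormancy protein DOG1, and it is not blocked by the receptors in the way the other phosphatases are.

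RNA was sequenced from whole 7-day-old seedlings of *exg1-1*, *rlp44-3* and the wild type Col-0, with 3 libraries for each genotype. Seeds were sown on agar plates, kept for 2 days at 4 °C and then grown upright at 20 °C with 8 h of light and 16 h of dark. They were collected intact, and the labels name no ABA treatment. *EXG1* (AT3G08030; the sample labels spell it EVG1) and the receptor-like protein gene *RLP44* (AT3G49750) of brassinosteroid and cell wall signalling were compared by the study for shared effects on gene expression. Each mutant is 1 T-DNA insertion allele in the Col-0 background, so a second change in the same line cannot be told apart from the named mutation. *EXG1* stood at 33.8 CPM in *exg1-1*, against 103 CPM in Col-0, so transcript was still counted in that mutant. *RLP44* had 1.08 fitted reads over the 3 libraries in *rlp44-3*, against 102 in Col-0, a ratio of 0.00850. The 95% counting interval spans 21.7 to 3767 times lower.

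The deposited table is named for raw counts, but a gene has 1 fitted value in each genotype, to which only a factor of the library is applied. The 3 columns of a genotype are therefore proportional for every gene and carry no spread between replicates, so no test, SD or p-value can be computed from it for any gene. The values are called fitted reads here, and fitted CPM once they are scaled to library size and between genotypes. Library totals ran from 10396228 to 12971468 fitted reads in *exg1-1*, from 11015026 to 11535985 in *rlp44-3* and from 8364383 to 9606982 in Col-0. Intervals at 95% were computed on the sums over the 3 libraries and cover counting error only, so they are narrower than replicate error would be. In bulk seedlings, fewer cells of a type and less RNA per cell cannot be told apart.

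The clade is spread over all 5 chromosomes, and no 2 members overlap. In RefSeq's TAIR10.1 annotation the coding sequences of the 36 pairs of members were 61.4% to 79.3% identical over their aligned bases, with gaps left out. The closest pair was *ABI1* with *ABI2*, followed by *HAB1* with *HAB2* at 79.2% and *HAI2* with *HAI3* at 77.4%. The longest identical run in any pair of transcripts was 33 bases, shorter than the 150-base reads. The 3′ end of *ABI1* overlaps AT4G26070 on the opposite strand by 22 bases, and whether strand was used in counting is not given in the sources used here.

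Promoter windows of 300 bases before the annotated gene start were read from TAIR10.1 and searched on both strands for ACGTG, the core of the ABA-responsive element to which the ABF factors bind. They are shown for *HAI2*, the member furthest from Col-0, and for *HAI1*, the next one that passed the filter. The third is *PP2CA*, which has as many cores as *HAI2* and lies closer to Col-0. Capitals mark ACGTG or its reverse complement CACGT. None of the 3 windows overlaps another annotated gene, and all lie upstream of a gene on the minus strand.
*HAI2* (chr1:2282829-2283128, minus strand): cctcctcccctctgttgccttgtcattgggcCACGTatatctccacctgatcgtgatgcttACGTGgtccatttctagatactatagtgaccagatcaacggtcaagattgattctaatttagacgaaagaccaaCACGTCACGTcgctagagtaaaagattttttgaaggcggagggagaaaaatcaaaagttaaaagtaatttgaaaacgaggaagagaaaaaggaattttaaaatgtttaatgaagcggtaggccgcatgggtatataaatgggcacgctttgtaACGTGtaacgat
*PP2CA* (chr3:3585851-3586150, minus strand): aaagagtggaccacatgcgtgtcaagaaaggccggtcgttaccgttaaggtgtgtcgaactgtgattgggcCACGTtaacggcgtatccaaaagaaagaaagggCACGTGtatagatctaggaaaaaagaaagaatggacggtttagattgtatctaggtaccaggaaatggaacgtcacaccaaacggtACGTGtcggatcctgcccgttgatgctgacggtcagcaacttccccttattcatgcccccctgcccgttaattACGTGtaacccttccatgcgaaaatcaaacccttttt
*HAI1* (chr5:23896940-23897239, minus strand): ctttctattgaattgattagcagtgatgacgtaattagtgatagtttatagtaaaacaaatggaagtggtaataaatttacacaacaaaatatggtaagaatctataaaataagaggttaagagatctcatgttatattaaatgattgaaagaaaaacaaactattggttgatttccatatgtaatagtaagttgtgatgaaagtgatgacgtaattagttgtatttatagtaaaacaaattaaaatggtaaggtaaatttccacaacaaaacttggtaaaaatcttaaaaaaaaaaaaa

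The *HAI2* and *PP2CA* windows each held 5 cores, a number reached by 0.554% of the 27443 promoter windows searched. Those of *HAI2* lie 265, 235, 161, 156 and 8 bases before the gene start, with the third and the fourth side by side. In *PP2CA*, 2 of the 5 are the 2 strands of 1 palindromic CACGTG. At least 1 core was found in 7 of the 9 members, against 25.6% of all windows, and at least 2 in 5 members, against 9.94%. The 2 cores of *AHG1*, 1 of these 5 members, are also the 2 strands of 1 CACGTG, and all windows were counted in this way. *HAI1* and *ABI2* had none. CACGTG itself was found in 2 of the 9 (*PP2CA* and *AHG1*), against 7.09% of all windows, and CCGAC, the core of the cold- and drought-responsive element, also in 2 of the 9, against 13.9%. These matches describe letters in a window and do not show that a factor binds there.

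The 9 phosphatases covered a wide range of levels. Per kb of transcript, *ABI1* was the highest in every genotype, at 30.3 fitted CPM per kb in *exg1-1*, 25.6 in *rlp44-3* and 33.0 in Col-0. *PP2CA*, a main brake on ABA responses in seeds and seedlings, came second, with 16.2 fitted CPM per kb in *exg1-1*, 18.4 in *rlp44-3* and 23.7 in Col-0. *HAB1*, *HAB2* and *ABI2* followed, between 4.56 and 11.2 fitted CPM per kb. The order of *HAB1* and *HAB2* was not resolved within counting error in *exg1-1* or in Col-0, and in *rlp44-3* *HAB2* was above *HAB1*. The 3 HAI genes and *AHG1* were the lowest of the clade, from 0.274 fitted CPM per kb for *AHG1* to 2.55 for *HAI1* in Col-0. At that end *HAI3* and *AHG1* were not separated in Col-0, and *HAI2*, *HAI3* and *AHG1* overlapped with their neighbours in both mutants.

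**Figure D1:**
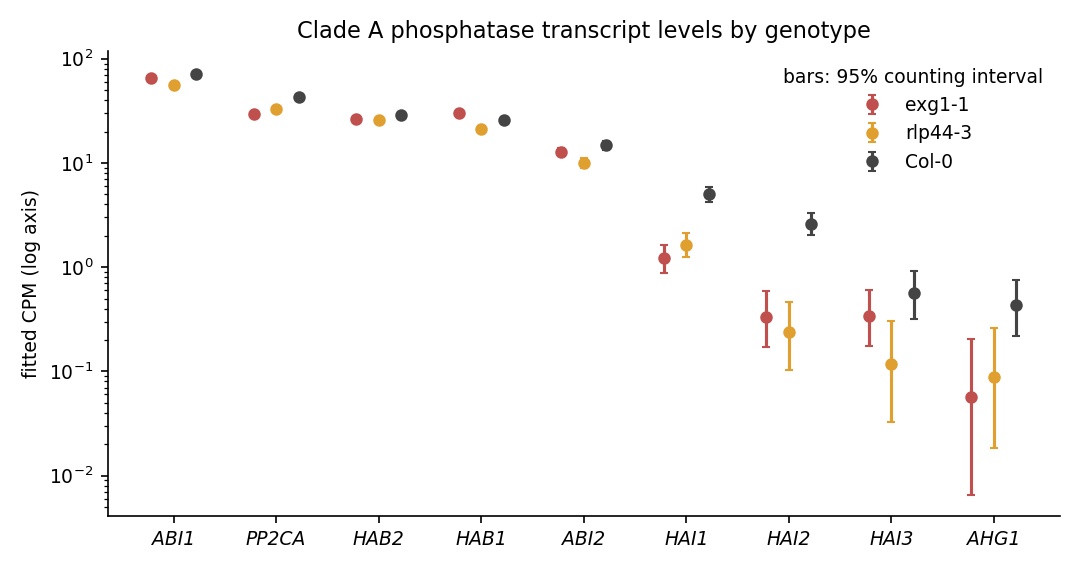
Fitted CPM (log axis) of the 9 clade A phosphatase genes in *exg1-1*, *rlp44-3* and Col-0, with bars for the 95% counting interval of the sum over 3 libraries. *HAI1* is at 1.22, 1.65 and 4.98 fitted CPM and *HAI2* at 0.335, 0.237 and 2.596 fitted CPM in these genotypes, while *ABI1* stays between 55.4 and 71.6 fitted CPM.

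By fitted value, the ABA-inducible HAI genes and *AHG1* stood furthest below Col-0, although the interval of *HAI3* in *exg1-1* includes no difference. *HAI2* had 3.36, 4.09 and 4.20 fitted reads in the libraries of *exg1-1*, against 24.5, 21.7 and 24.9 in those of Col-0. In *rlp44-3* it had 2.66, 2.63 and 2.75. These unscaled columns are 1 fitted value per genotype times a library factor, so their separation carries no information on replicates. Scaled, *HAI2* was 7.75-fold lower in *exg1-1* than in Col-0 (95% counting interval 4.14 to 15.9, on sums over 3 libraries each), and 10.96-fold lower in *rlp44-3* (5.28 to 26.3). Of the 19454 genes that passed the filter, 27 had a lower ratio in *exg1-1* and 27 in *rlp44-3*, which places *HAI2* in the lowest 0.139% in both. This rank uses the same ratios by which the clade was chosen, so it is a description and not a test. *HAI2* is also among these genes through Col-0 alone, where it is high, which favours a low ratio.

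*HAI1*, whose product dephosphorylates SnRK2 kinases and also stress-activated MAP kinases, had 12.3, 14.9 and 15.3 fitted reads in the *exg1-1* libraries, 18.5, 18.3 and 19.2 in those of *rlp44-3*, and 46.9, 41.7 and 47.9 in those of Col-0. It was 4.08-fold lower in *exg1-1* (2.87 to 5.90) and 3.02-fold lower in *rlp44-3* (2.199 to 4.20) than in Col-0. Both intervals lie wholly beyond 2-fold.

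*HAI3*, the third highly ABA-induced member, had only 11.9 fitted reads over the 3 libraries in *exg1-1* and 4.02 in *rlp44-3*, against 15.5 in Col-0. Its log2 ratio to Col-0 was -0.72 in *exg1-1*, with an interval from -1.94 to 0.47 that includes no difference, and -2.26 in *rlp44-3*, with an interval from -4.30 to -0.62. *AHG1* had 1.96 fitted reads in *exg1-1* and 3.00 in *rlp44-3*, against 11.8 in Col-0. Its log2 ratio was -2.94 (-6.19 to -0.75) in *exg1-1* and -2.28 (-4.75 to -0.39) in *rlp44-3*. At this depth these 2 genes show a direction at most, and the size of their difference from Col-0 is poorly bounded.

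Markers of seed tissue moved in the same direction as these genes. Seed storage and oil body markers were the cruciferins *CRA1*, *CRU2* and *CRU3*, the 2S albumins *SESA1* to *SESA3* and the oleosins *OLEO1* and *OLEO2*. All 5 that passed the filter had lower fitted values in both mutants, beside 50.8% (*exg1-1*) and 50.1% (*rlp44-3*) of all genes that passed. *CRU2*, *SESA1* and *SESA2*, which did not pass the filter, had lower fitted values in both mutants as well. Of the 5 markers that passed it, *CRA1*, *CRU3*, *SESA3* and *OLEO1* did so through Col-0 alone, where they are high. The summed level of the 8 was 2.86 fitted CPM in *exg1-1* and 1.15 in *rlp44-3*, against 18.4 in Col-0. The table's lowest value, which stands for no reads, was reached by *CRU3*, *SESA1* and *SESA2* in *exg1-1*, by *CRU2*, *SESA1* and *SESA2* in *rlp44-3*, and by none in Col-0. *SESA1* and *SESA2* had only 3.81 and 2.86 fitted reads in Col-0, and their intervals include no difference in both mutants. Markers of guard cells, where ABA signalling is best known, summed to 32.6 fitted CPM in *exg1-1*, 30.8 in *rlp44-3* and 33.5 in Col-0, root markers to 63.7, 64.4 and 69.2, and leaf markers to 49197, 48200 and 44168, so each organ of the seedling was present in all genotypes. The part of residual seed RNA in the *HAI* and *AHG1* differences was not tested.

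The more abundant members lay closer to Col-0. *PP2CA* was 1.46-fold lower in *exg1-1* (1.34 to 1.59) and 1.29-fold lower in *rlp44-3* (1.19 to 1.40), with 29.2 fitted CPM in *exg1-1* and 33.2 in *rlp44-3*, against 42.7 in Col-0. *ABI1*, the phosphatase first found through ABA-insensitive mutants, had 65.8 fitted CPM in *exg1-1* and 55.4 in *rlp44-3*, against 71.6 in Col-0, or log2 ratios of -0.12 (-0.21 to -0.03) and -0.37 (-0.46 to -0.28). Its close relative *ABI2* had 12.8 fitted CPM in *exg1-1* and 10.02 in *rlp44-3*, against 14.8 in Col-0, or -0.21 (-0.40 to -0.01) and -0.56 (-0.78 to -0.35). Both were thus further below Col-0 in *rlp44-3*.

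*HAB1*, a SnRK2 phosphatase whose structure with a receptor and ABA helped to show how the hormone blocks the clade, was the 1 member above Col-0, and only in *exg1-1*. It had 30.04 fitted CPM in *exg1-1*, against 25.9 in Col-0, a log2 ratio of 0.21 (0.07 to 0.35). In *rlp44-3* it had 21.2 fitted CPM, a log2 ratio of -0.29 (-0.44 to -0.14). *HAB2*, its nearest relative, had 26.6 fitted CPM in *exg1-1*, 25.9 in *rlp44-3* and 28.5 in Col-0, and neither interval excluded no difference (-0.24 to 0.04 in *exg1-1* and -0.28 to 0.00 in *rlp44-3*).

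**Figure D2:**
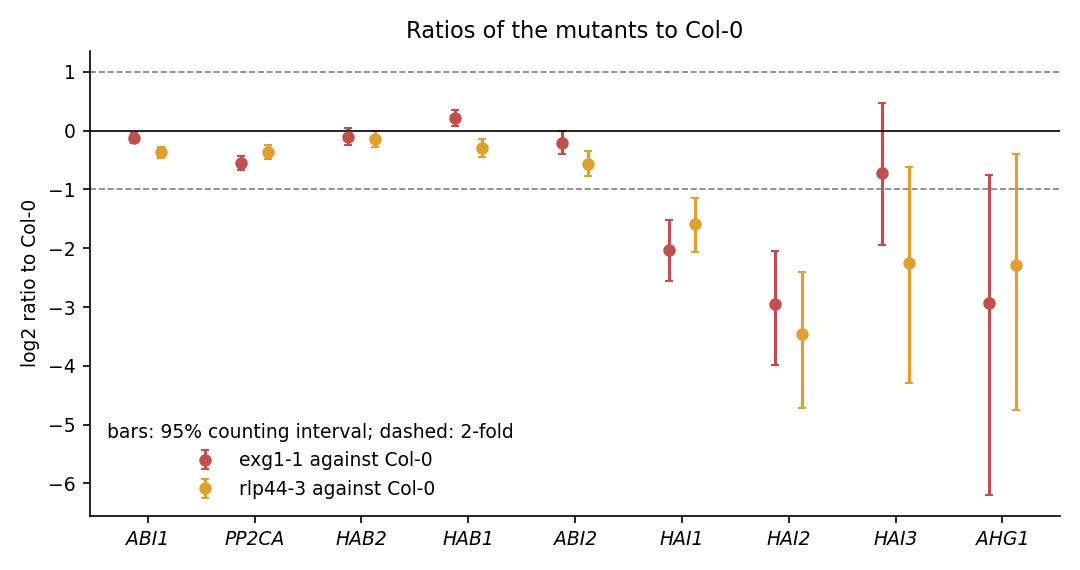
Log2 ratio to Col-0 of each clade A phosphatase gene in *exg1-1* and *rlp44-3*, with the 95% counting interval as bars and dashed lines at 2-fold. *HAI1* and *HAI2* lie wholly below the 2-fold line in both mutants, *HAI3* and *AHG1* have wide intervals, and the other 5 lie between -0.56 and 0.21.

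Counted over the clade, 3 of the 9 members were 2-fold or more below Col-0 in *exg1-1* by their fitted value (*HAI1*, *HAI2* and *AHG1*) and 4 of 9 in *rlp44-3* (the same 3 with *HAI3*), and 0 were 2-fold or more above. Among all genes that passed the filter, 1.61% were 2-fold lower and 0.956% 2-fold higher in *exg1-1*, and 1.09% lower and 0.586% higher in *rlp44-3*. Of the 7 members that passed it, 2 were 2-fold lower in each mutant. Without a filter, the level at which all 9 members can be set beside other genes, 7.3% of 25717 genes were 2-fold lower in *exg1-1* and 6.26% in *rlp44-3*. With 1 CPM added to each value, which draws low genes towards no difference, 2 members were 2-fold lower in each mutant. At any size, 6 of the 7 members that passed were below Col-0 in *exg1-1* and 7 of 7 in *rlp44-3*. Of all genes that passed, 50.8% and 50.1% were, and over all 9 members the counts were 8 and 9. Intervals wholly below no difference were found for 5 of the 7 in *exg1-1* and 6 in *rlp44-3*, against 19.2% and 12.7% of all genes that passed. Over all 9 members, 6 and 8 had such intervals. The shares at any size and for intervals cover only genes that passed, so the counts over all 9 have no matching share. The median log2 ratio was -0.55 over all 9 members in *exg1-1* (-0.21 over the 7 that passed) and -0.56 in *rlp44-3* (-0.37 over the 7), beside medians of 0.00 over all genes that passed. The clade was taken up because of these contrasts, and both mutants are set against the same Col-0 libraries, so the counts are not independent of one another or of the choice.

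Set against each other, the mutants did not differ by 2-fold in any member that passed the filter, where 1.06% of all genes were 2-fold lower and 0.946% 2-fold higher in *exg1-1* than in *rlp44-3*. At any size 2 of the 7 members that passed were lower in *exg1-1*, against 49.8% of all genes that passed. Over all 9 members 3 were lower, a count with no matching share. *HAB1* stood 0.50 higher on the log2 scale in *exg1-1* than in *rlp44-3* (0.36 to 0.64), *ABI2* 0.36 higher (0.15 to 0.56) and *ABI1* 0.25 higher (0.16 to 0.34). *PP2CA* had a log2 ratio of -0.18 (-0.31 to -0.06). Intervals wholly above no difference were thus found for 3 of the 7 members that passed, against 21.5% of all genes that passed. Wholly below it was 1 of the 7, against 19.5%. For *HAI1* (-0.43, from -1.04 to 0.17) and *HAI2* (0.50, from -0.92 to 2.00) the mutants could not be separated at this depth, and an up to 2-fold lower *HAI1* or a 4-fold higher *HAI2* in *exg1-1* lies within these intervals. *HAI3* (1.54, from -0.18 to 3.62) was 2-fold or more higher by its fitted value, but its interval and those of *AHG1* and *HAB2* include no difference.

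Summed per kb of transcript over the 9 genes, the clade stood at 74.8 fitted CPM per kb in *exg1-1* and 67.4 in *rlp44-3*, against 88.5 in Col-0, which is 84.5% and 76.1% of the Col-0 sum. *ABI1* made up 40.6% of the sum in *exg1-1*, 37.9% in *rlp44-3* and 37.3% in Col-0. *HAI1*, *HAI2*, *HAI3* and *AHG1* together, a grouping made after their values were seen, gave 1.07 fitted CPM per kb in *exg1-1* and 1.10 in *rlp44-3*, against 4.57 in Col-0. That was 1.43%, 1.64% and 5.16% of the clade's transcripts, so the members furthest from Col-0 contributed little to the clade's total in any genotype.

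**Figure D3:**
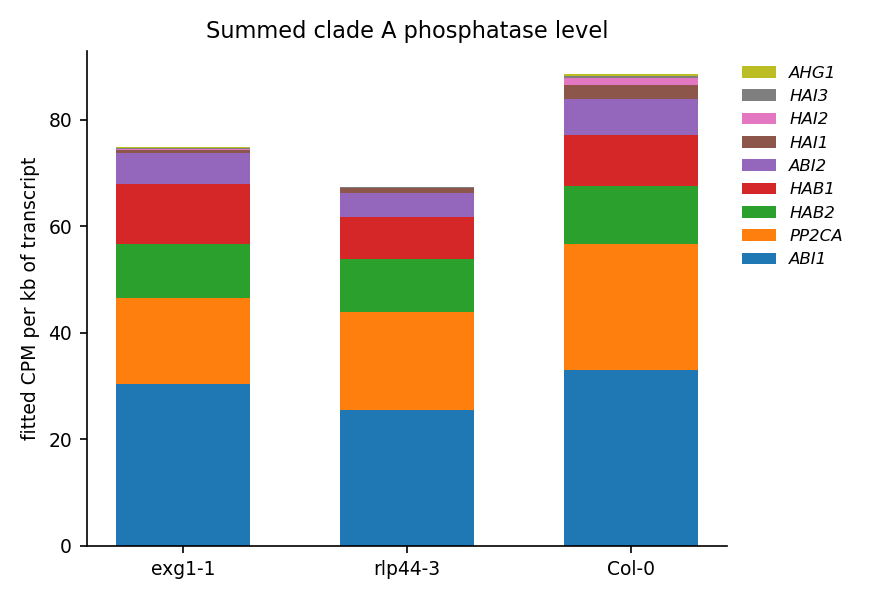
Fitted CPM per kb of transcript of the 9 clade A phosphatase genes, stacked for *exg1-1*, *rlp44-3* and Col-0. The bars reach 74.8, 67.4 and 88.5 fitted CPM per kb, and *ABI1* and *PP2CA* make up most of each.

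The other protein phosphatase 2C genes gave a comparison for the clade. The annotation names 62 outside clade A, of which 59 had values and 51 passed the filter. None of the 51 was 2-fold from Col-0 in either mutant. Of all genes that passed, 1.61% were 2-fold lower and 0.956% higher in *exg1-1*, and 1.09% and 0.586% in *rlp44-3*. A count of 0 among 51 lies near these shares. Of the 8 under the filter, where ratios rest on few reads, 2 were 2-fold lower and 1 higher in *exg1-1* by their fitted value, and 3 were lower in *rlp44-3*. Among these AT4G11040, named after its values were seen, resembled *AHG1*: it was at the table's lowest value in *exg1-1* and had 2.97 fitted reads in *rlp44-3*, against 9.57 in Col-0. The log2 ratios of the 51 ran from -0.96 to 0.64 in *exg1-1*, with a median of 0.01, and from -0.62 to 0.32 in *rlp44-3*, with a median of -0.05. The difference between the clade and the other phosphatases was not tested.

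The receptors that dock on the clade were shifted the other way. Of 14 PYR/PYL genes, 9 passed the filter, and all 9 were above Col-0 in *exg1-1*, with a median log2 ratio of 0.30, and 8 of 9 in *rlp44-3*, with a median of 0.28, although none by 2-fold. About as many of all genes lay above Col-0 as below it in both mutants. *PYL4* had 127 fitted CPM in *exg1-1* and 107 in *rlp44-3*, against 75.4 in Col-0. *PYL5* had 32.9 fitted CPM in *exg1-1* and 28.6 in *rlp44-3*, against 16.8 in Col-0, and *PYL6* had 12.2 and 9.9996, against 6.70. Among the receptors that passed the filter these 3 had the largest ratios, with log2 values of 0.75, 0.97 and 0.86 in *exg1-1* and 0.51, 0.77 and 0.58 in *rlp44-3*. Transcripts of this subfamily are known to be reduced by ABA, and whether that bears on these values was not tested. *PYR1* had 67.2 fitted CPM in *exg1-1* and 65.4 in *rlp44-3*, against 51.5 in Col-0, while *PYL1*, *PYL2*, *PYL7*, *PYL8* and *PYL9* had log2 ratios between -0.16 and 0.30. Per kb of transcript, the summed receptors stood at 3.26 times the summed phosphatases in *exg1-1* and 3.24 times in *rlp44-3*, against 1.95 times in Col-0. This is a ratio of transcripts and says nothing of protein levels.

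All 10 SnRK2 genes passed the filter, none was 2-fold apart, and their median log2 ratio was 0.08 in *exg1-1* and 0.01 in *rlp44-3*. *SNRK2.2*, *SNRK2.3* and *SNRK2.6*, the main targets of the clade in ABA signalling, had 76.1, 25.9 and 22.9 fitted CPM in *exg1-1*, 79.6, 32.2 and 19.5 in *rlp44-3*, and 74.95, 26.5 and 18.7 in Col-0. The kinase gene furthest from Col-0 in *exg1-1*, named after its value was seen, was *SNRK2.8*, with 21.8 fitted CPM in *exg1-1* and 11.7 in *rlp44-3*, against 13.6 in Col-0. Its log2 ratios were 0.68 (0.50 to 0.87) in *exg1-1* and -0.22 (-0.43 to -0.01) in *rlp44-3*. None of 7 known partners and regulators of the phosphatases was 2-fold apart from Col-0 either. Both lists are short, and these counts lie near the share of all genes 2-fold apart given above. The furthest of the 7 was *HB7*, an ABA-induced homeodomain factor that activates clade A phosphatase genes, with log2 ratios of -0.73 in *exg1-1* and -0.77 in *rlp44-3*, named here after its value was seen.

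Genes known to be induced by ABA were taken as targets downstream of the clade. Of 13 such targets that passed the filter, 7 were 2-fold or more below Col-0 in *exg1-1* and 5 in *rlp44-3*, with median log2 ratios of -1.002 and -0.81, and 0 were 2-fold above. Of all genes that passed, 1.61% and 1.09% were 2-fold lower. Of these targets, *EM1* passed the filter through Col-0 alone, where it is high. *RAB18*, a dehydrin, had 40.0 fitted CPM in *exg1-1* and 43.1 in *rlp44-3*, against 121 in Col-0, and *RD29B*, whose promoter is a standard ABA reporter, had 8.60 and 5.16, against 36.7. The late embryogenesis proteins *LEA4-5* (log2 ratios of -3.32 and -4.12) and *EM1* (-4.30 and -3.57) and the cold- and ABA-induced *KIN1* (-2.50 and -1.62) were also below 2-fold in both. *KIN2* (-1.002 and -0.61) and the lipid transfer gene *LTP3* (-1.88 and -0.81) passed 2-fold in *exg1-1* but not in *rlp44-3*, a difference that was not tested, and *KIN2* lies at the threshold. *KIN1* and *KIN2* are neighbouring, closely similar genes between which the counting could split reads. *RD26*, an ABA-induced NAC factor, was the target above Col-0, at 0.58 and 0.18. *EM1* and *LEA4-5* are abundant in seeds, so the seed marker values given above stand beside this list as well. *EM6*, on the same list and named after its values were seen, lay closer to Col-0, with log2 ratios of -0.63 and -0.78.

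Among 7 transcription factors of the ABA response, *ABI4* was 2-fold or more below Col-0 in both mutants and *ABI5* in *rlp44-3* but not in *exg1-1*, a difference that was not tested. Of all genes that passed the filter, 1.61% were 2-fold lower in *exg1-1* and 1.09% in *rlp44-3*. *ABI4* and *ABI5* are best known from seeds and germination. *ABI4* was at the table's lowest value in *exg1-1*, at least 13.7-fold lower than the 32.3 fitted reads in Col-0 when a floor of 3 reads over the 3 libraries is used and the Col-0 value is taken as exact (the counting interval starts at 8.05-fold). It passed the filter through Col-0 alone, and it had 1.98 fitted reads in *rlp44-3*, 20.2-fold lower with an interval from 5.14 to 176. *ABI5* had 3.47 fitted CPM in *exg1-1* and 1.94 in *rlp44-3*, against 5.19 in Col-0, or log2 ratios of -0.58 and -1.42. The other 5, among them *ABF1* to *ABF4*, lay between -0.70 and 0.43. The list's medians, -0.18 in *exg1-1* and -0.22 in *rlp44-3*, do not depend on the value given to *ABI4*. For ABA itself, *NCED3*, the rate-limiting step of its stress-induced synthesis, had 3.25 fitted CPM in *exg1-1* and 5.54 in *rlp44-3*, against 7.10 in Col-0, log2 ratios of -1.13 and -0.36. It was the only one of 6 synthesis genes that passed the filter to reach 2-fold, and none of the 4 CYP707A breakdown genes did. The shares of all genes given above apply to these short lists as well. ABA was not measured in these files.

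**Figure D4:**
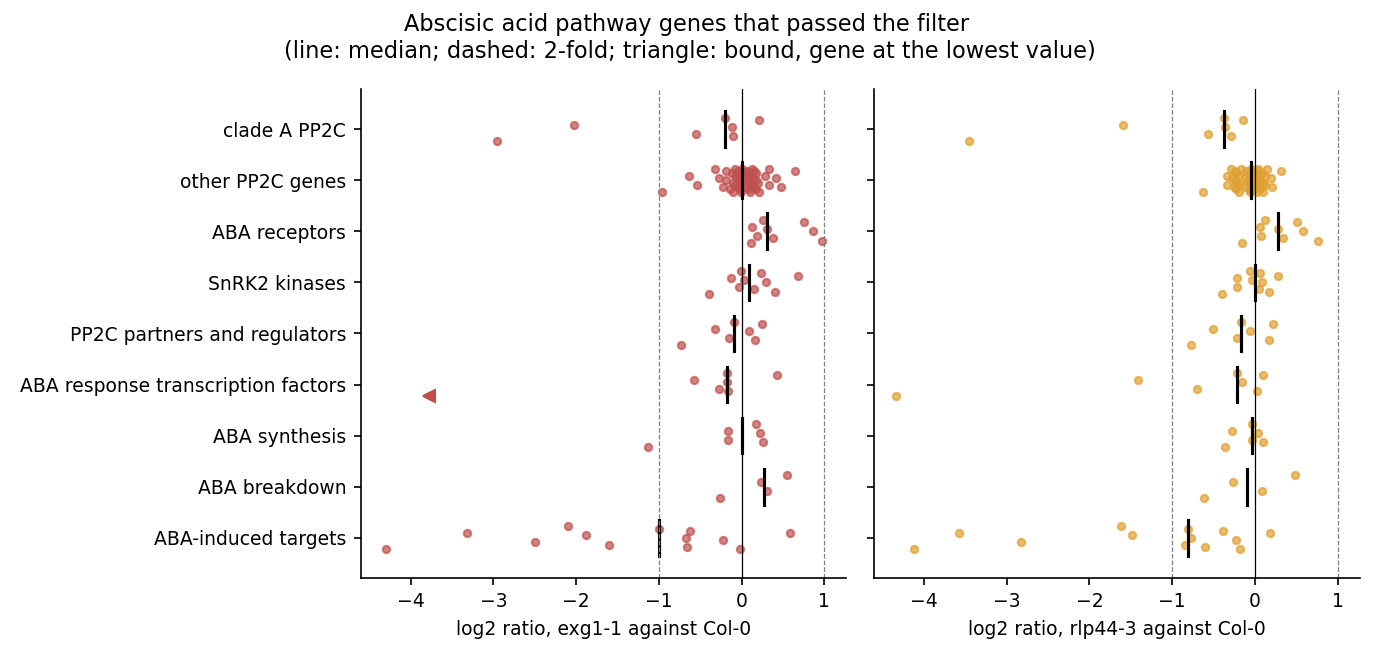
Log2 ratio to Col-0 in *exg1-1* (left) and *rlp44-3* (right) of the ABA pathway genes that passed the filter, 1 point per gene, with a line at each list's median, dashed lines at 2-fold and a triangle for *ABI4* at its bound in *exg1-1*. The clade A phosphatases have medians of -0.21 and -0.37 with *HAI1* and *HAI2* far to the left, the receptors lie to the right with medians of 0.30 and 0.28, and the targets to the left with medians of -1.002 and -0.81.

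The genes whose ratios were most like those of *HAI2* were searched among 18606 genes with at least 10 fitted reads in each Col-0 library, by the distance between their pairs of log2 ratios to Col-0 over the 3 genotypes. The nearest was the dehydrin gene *LEA* (AT2G21490), with log2 ratios of -3.02 in *exg1-1* and -3.52 in *rlp44-3*. It was followed by AT3G02480, a late embryogenesis abundant family gene (-2.78 and -3.28), the seed storage cruciferin *CRA1* (-3.14 and -3.64), and 2 more late embryogenesis abundant genes, AT5G66780 (-2.76 and -3.67) and AT3G15670 (-3.29 and -3.59). Col-0 held 159.7, 1137, 132, 166 and 598 fitted reads of these 5 genes over its 3 libraries, so each was better covered than *HAI2* with 71.1. In *rlp44-3* the sums were 17.2, 145, 13.2, 16.2 and 61.5 fitted reads, so several of these ratios rest on few reads there. The likeness rests on 2 ratios that share the Col-0 libraries. The genes searched were kept by their reads in Col-0 alone, and *HAI2* is the member furthest below Col-0. Both favour neighbours that are high in Col-0 and low in the mutants, and *CRA1* passed the filter on low values through Col-0 alone. The list is therefore a description and not a test.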

How the data were processed

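Poly(A) RNA of whole seedlings was prepared with a directional kit and sequenced as 150-base read pairs. The authors used fastp for trimming, HISAT2 for mapping to TAIR10, HTSeq for counting and DESeq2 for testing. Neither tool versions nor the use of strand is given in the sources used here. The values deposited by the authors are neither counts nor another standard unit: of 33341 rows, 25717 had values, 0 values were whole (tolerance 1e-06), and the 3 columns of a genotype were proportional (largest relative deviation 9.5e-15). Columns of *exg1-1* and *rlp44-3* were assigned by genotype, and 3 further columns were not used.

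The columns of each genotype were summed. Genes were kept with at least 0.908 CPM (10 reads at the median library size) in all libraries of a genotype and a sum of at least 15, which left 19454. Scaling was TMM (30% and 5% trimmed) in Python 3.11.15 with numpy 2.4.6, pandas 2.3.3 and scipy 1.17.1, and was tested on simulated data. Relative to Col-0, the scaling factors were 0.34 (*exg1-1*) and 0.31 (*rlp44-3*) in log2 units. Counting intervals at 95% (Clopper-Pearson for ratios, Poisson for sums) treat fitted sums as counts. No test was possible from these values, and with 1 value per genotype a gene 2-fold apart is described as such. Alternatives were RLE, upper quartile and total scaling, 2 other filters, scaling without organelle genes, 1 CPM added, and a 1.5-fold threshold.

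The members and lists were chosen with earlier results of these data known. Named genes are the 9 members, receptors and 3 SnRK2 kinases by level, list genes 2-fold from Col-0, *EXG1*, *RLP44*, and the 5 genes nearest to *HAI2*. Of the table's genes, 25487 were found in TAIR10.1, whose own coordinates are used for gene models and promoters. No protein sequences were used here.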

Additional observations from a re-analysis of the deposited data

How the results depend on the processing

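No paired analysis was possible because the 3 columns of a genotype are proportional, so neither a replicate block nor leaving out a library could alter any ratio, and neither was run. Of 189 log2 ratios of members recomputed (9 members, 3 comparisons and 7 settings), 184 stayed within their counting interval. The other 5, all with 1 CPM added, were *HAI1* (-1.43), *HAI2* (-1.43) and *AHG1* (-0.44) in *exg1-1* and *HAI2* (-1.54) and *HAI3* (-0.49) in *rlp44-3*, where the added CPM draws ratios of low genes towards 0. *HAB2* in *exg1-1* against *rlp44-3* ran from -0.02 to 0.05 with the scaling. With 1 CPM added, 2 members were 2-fold lower in *exg1-1*, where *AHG1* was lost, and 2 in *rlp44-3*, where *AHG1* and *HAI3* were, and the median of members in *exg1-1* against *rlp44-3* was 0.11. Without a filter, the members' medians were -0.52 in *exg1-1* and -0.55 in *rlp44-3*, because the 2 low members then enter. With at least 10 reads in every library, the median in *exg1-1* against *rlp44-3* was 0.14, and at 1.5-fold 1 member was lower there. Genes lower and higher by 2-fold numbered 313 and 186 in *exg1-1* and 212 and 114 in *rlp44-3*. They were 1877 and 998, and 1611 and 1035, without a filter, 113 and 99, and 66 and 56, with at least 10 reads in every library, 108 and 81, and 92 and 52, with 1 CPM added, and 1031 and 586, and 612 and 403, at 1.5-fold. The other scalings of the genotypes (RLE, upper quartile, library totals) left the members' counts at 3 and 4. Depth limits *HAI3* and *AHG1* most, with under 16 fitted reads in any genotype, and the spread between replicates is unknown for every gene.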
